A study of Mus musculus with 16 samples.

Results

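The endoplasmic reticulum (ER) chaperones and disulfide isomerases described here are 10 genes, Hspa5, Hsp90b1, Calr, Canx, P4hb, Pdia3, Pdia4, Pdia6, Txndc5 and Xbp1, taken by symbol from the 22612 genes of the count tables. Each gene is represented by the transcript with the most ribosome footprints over the 8 Ribo-seq libraries, which left 10 of the 20 transcripts listed for these symbols among 64026 transcripts in all. The genes were selected on earlier results of these libraries, namely lower ER chaperone messages in untreated hair follicle stem cells (HFSCs) than in untreated progenitors and a higher footprint-to-message ratio of Txndc5 there, so both values are given below as descriptions. In messages, footprints and efficiency alike, the averages over both treatments and all contrasts of N1-AcSpd with untreated cells share those untreated libraries, and nothing is read from the counts of calls among the 10 genes there. The cells came from 3D–3C HFSC organoids, cultures in which epidermal cells of C57BL/6J mice form a mixture of stem cells and their progeny. After 2 weeks the organoids were sorted into alpha6+CD34+ HFSCs and alpha6+CD34- progenitors. They were left untreated or had received N1-acetylspermidine (N1-AcSpd), an acetylated polyamine, for the last 72 h. Each of the 4 groups holds cells of 2 donor mice, numbered 1 and 2, and each lysate was divided between RNA-seq, which counts messages, and Ribo-seq, which counts the message fragments that ribosomes protect, giving 16 libraries with n = 2 per group and assay. All groups are cultured cells sorted by the same gates, so none of the values describes a follicle in the skin.

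Proteins that are secreted or sit in membranes enter the ER as unfolded chains. Hspa5 (BiP) and Hsp90b1 (Grp94) are the HSP70 and HSP90 chaperones of this compartment, Calr and Canx hold newly glycosylated chains, and the protein disulfide isomerases P4hb, Pdia3, Pdia4, Pdia6 and Txndc5 form and reshuffle the bonds between cysteines. Xbp1 is a transcription factor of the unfolded protein response: under folding load the sensor Ern1 splices its message, and the resulting protein, with Atf6, raises transcription of chaperones through the ER stress response element (ERSE). Basal keratinocytes secrete and assemble basement membrane, and P4hb has a further role there and in other cells as the beta subunit of collagen prolyl 4-hydroxylase.

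The ERSE is the sequence feature through which these genes are best known to respond together, so the promoter sites are shown before the values. ERSE was searched on both strands as CCAAT, then 9 bases of any kind, then CCACG. The search used RefSeq promoters of the mouse genome build GRCm38.p6, from 250 bases before to 50 bases after a listed start. A gene can have several listed starts, and the 10 genes have 12 promoters. ERSE was found in 39 of 32851 such promoters (0.119%) and in 5 of the 10 genes, Hspa5, Hsp90b1, Calr, Canx and Pdia6, with a pair of matches in Hsp90b1. The letters TGACGTGG, the site bound by XBP1, were searched the same way. Their reverse complement holds the CCACG box, and in 2 promoters, neither of them of the 10 genes, the matches share bases. The letters were found in 222 promoters (0.676%). Among the 10 genes they were in Txndc5 only, in 1 of the 12 promoters of the set. That promoter is chr13:38527865-38528164. The other Txndc5 promoters, chr13:38528435-38528734 and chr13:38528775-38529074, had 0 matches. The sites follow with 12 bases on either side, written 5′ to 3′ on the strand that carries the motif, with the motif boxes in capitals. A match describes the letters in the window and not a bound site, and no footprint or message value below bears on binding.
Hspa5 at chr2:34772013-34772055, plus strand: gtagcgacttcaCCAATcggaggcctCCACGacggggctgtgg
Hsp90b1 at chr10:86705626-86705668, minus strand: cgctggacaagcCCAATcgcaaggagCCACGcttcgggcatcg
Hsp90b1 at chr10:86705521-86705563, plus strand: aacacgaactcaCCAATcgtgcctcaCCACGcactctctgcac
Calr at chr8:84847063-84847105, plus strand: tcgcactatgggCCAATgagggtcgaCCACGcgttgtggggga
Canx at chr11:50325788-50325830, minus strand: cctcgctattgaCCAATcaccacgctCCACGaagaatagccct
Pdia6 at chr12:17266479-17266521, plus strand: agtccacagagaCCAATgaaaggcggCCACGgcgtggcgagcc
Txndc5 at chr13:38528033-38528064, minus strand: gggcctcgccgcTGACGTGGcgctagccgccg

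The coding ends are shown because they mark 8 of the 10 products as residents of the ER. The last 4 codons, in capitals, spell the retrieval signal that KDEL receptors recognise or a variant of it, and no 2 of these 8 genes use the same 12 bases for it. The bases were read from GENCODE vM21 transcripts on GRCm38 and are coding exon sequence. The coordinates are those of the 12 bases in capitals. Canx, which is held by a membrane anchor, and Xbp1, which encodes a transcription factor, have no such end.
Hspa5 at chr2:34776099-34776110, plus strand: gaagaggatacatcagaaAAAGATGAGTTG
Hsp90b1 at chr10:86691105-86691116, minus strand: gaaaaggaatctacagagAAGGATGAATTG
Calr at chr8:84842650-84842661, minus strand: gaatcccctggccaagccAAGGATGAGCTG
P4hb at chr11:120561186-120561197, minus strand: gacgatcagaaagctgtgAAGGATGAACTG
Pdia3 at chr2:121437685-121437696, plus strand: aagaagaagaagaaggcaCAAGAGGACCTC
Pdia4 at chr6:47796491-47796502, minus strand: acaaagaggagcaggaccAAGGAAGAGCTT
Pdia6 at chr12:17283992-17284003, plus strand: gagctggatgacctggagAAGGATGAGTTG
Txndc5 at chr13:38501589-38501600, minus strand: tttgttctgcgccaggcaAAGGATGAACTA

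The redox sites of the isomerases are shown for Txndc5, on which the footprint values below turn. In each site the capitals are the 4 codons of the active-site motif, whose outer codons encode the cysteines that exchange disulfides. The coordinates are those of these 4 codons. A search of the coding sequences in frame found 3 such sites in Txndc5 and 3 in Pdia4, and 2 each in P4hb, Pdia3 and Pdia6. The other 5 genes have 0.
Txndc5 site at chr13:38523466-38523477, minus strand: gcgccctggTGTGGACACTGCcagcggctg
Txndc5 site at chr13:38510199-38510210, minus strand: gctccgtggTGCGGTCACTGCaaagctctg
Txndc5 site at chr13:38503548-38503559, minus strand: gctccgtggTGTGGCCACTGTaagaatctg

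The RNA-seq libraries held 21612795 to 31524062 counts over the kept transcripts, whereas the Ribo-seq libraries held 34475 to 268052 footprints, so message values carry far less counting error than footprint values. The shallowest and the deepest footprint library, 34475 and 268052, were both of untreated progenitors. A single footprint weighs more in the former once counts are scaled to the adjusted library size (CPM, defined with the processing below). Cd34, the antigen used for sorting, ranged from 2.35 to 5.36 CPM in the 4 progenitor RNA-seq libraries and from 67.4 to 86.7 and 68.2 to 89.9 CPM in untreated and N1-AcSpd HFSCs. The summed level of the 3 basal keratinocyte markers was 33220 to 39690 CPM, while the 5 fibroblast, 4 melanocyte, 4 immune, 2 endothelial and 4 plasma cell markers reached at most 10.3, 2.12, 0.0378, 1.62 and 0.145 CPM, with Lum, Cd207, Lyz2, Cdh5 and Igkc at 0 in all 8 libraries. The summed level of the 4 markers of differentiated keratinocytes, Krt1, Krt10, Ivl and Lor, did move with the groups. It was 49.9 to 62.7 CPM in untreated progenitors, 27.6 CPM in both libraries of untreated HFSCs, 137 to 213 CPM in N1-AcSpd progenitors and 49.2 to 69.7 CPM in N1-AcSpd HFSCs. The 6 HFSC markers are Cd34, Krt15, Nfatc1, Lhx2, Sox9 and Itga6, the integrin alpha6 of both gates, which was higher in progenitors, at 932 to 983 CPM, than in HFSCs, at 689 to 847 CPM. Without Itga6 the other 5 summed to 382 to 424, 1077 to 1247, 259 to 284 and 628 to 771 CPM in the same order, and thus lower with N1-AcSpd in both cell types, and with it to 1362 to 1369, 1879 to 1936, 1217 to 1242 and 1475 to 1574 CPM. Krt15 was at 682 and 763 CPM in untreated and 346 and 309 CPM in N1-AcSpd HFSCs. The basal marker sum was also higher in untreated progenitors, at 38930 to 39690 CPM, than in untreated HFSCs, at 34080 to 36410 CPM. The part of these shifts in the results on the 10 genes was not tested.

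The 10 genes lie on 7 autosomes and are given with the GRCm38 coordinates of the whole gene, not of the kept transcript. Hspa5 (ENSMUSG00000026864) is at chr2:34771970-34777547, Pdia3 (ENSMUSG00000027248) at chr2:121413775-121438687, Xbp1 (ENSMUSG00000020484) at chr11:5520659-5525893 and Pdia6 (ENSMUSG00000020571) at chr12:17266545-17284770, all on the plus strand. On the minus strand are Hsp90b1 (ENSMUSG00000020048) at chr10:86690209-86705509, Calr (ENSMUSG00000003814) at chr8:84841850-84846934, Canx (ENSMUSG00000020368) at chr11:50293961-50325673, P4hb (ENSMUSG00000025130) at chr11:120560298-120573253, Pdia4 (ENSMUSG00000025823) at chr6:47796141-47813430 and Txndc5 (ENSMUSG00000038991) at chr13:38500079-38528824. The tables count by transcript, and the same reads can be listed under several transcripts: the 2 leading Hspa5 transcripts both held 1730 footprints. Spliced and unspliced forms of the Xbp1 message differ by a short stretch within 1 exon and are not told apart by these counts.

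Together the 10 genes took up 0.488 ± 0.0259% (SD, n = 2) of the RNA-seq counts in untreated progenitors, 0.415 ± 0.0608% in untreated HFSCs, 0.527 ± 0.0574% in N1-AcSpd progenitors and 0.448 ± 0.00821% in N1-AcSpd HFSCs. Their share of the footprints was higher, at 0.985 ± 0.175%, 0.835 ± 0.0182%, 1.14 ± 0.0527% and 1.01 ± 0.0569% in the same order (SD, n = 2). In both assays the share was lower in HFSCs than in progenitors of the same treatment, in each mouse as numbered. The group means were higher with N1-AcSpd than without it, but by mouse the message share of HFSCs of mouse 1 was lower with N1-AcSpd (0.442% against 0.458%), as was the footprint share of progenitors of mouse 2 (1.10% against 1.11%). No test was made of these sums.

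Compared per kilobase of transcript, Calr, the soluble calcium-binding lectin chaperone, was the most abundant message of the set, with a median of 374 CPM per kb over the 8 libraries (range 292 to 480). Pdia3, the isomerase that works with Calr and Canx, P4hb, Hsp90b1, Hspa5 and Canx followed at medians of 216, 208, 201, 199 and 188 CPM per kb. The ranges of neighbours in this group overlapped, so their order is not fixed by these libraries. Pdia6 stood at 138, Pdia4, an isomerase of the same family with 3 redox sites, at 85.1, Txndc5 at 38.0 and Xbp1 at 26.0 CPM per kb. Calr did not overlap with Pdia3, nor Pdia4 with Txndc5, nor Txndc5 with Xbp1. Even Xbp1, the lowest of the 10, had a mean message level above that of 81.5% of the 14204 genes with a length, and Calr exceeded 98.6%.

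Footprints per kilobase of coding sequence gave another order below Calr, which again led with a median of 1396 CPM per coding kb (range 1002 to 1819), ahead of Hspa5 at 958, Pdia6 at 922, Pdia3 at 825 and P4hb at 701. Canx and Hsp90b1 were at 516 and 473, and Xbp1, Pdia4 and Txndc5 were lowest at 262, 214 and 192 CPM per coding kb. All neighbouring ranges overlapped. The footprint level divided by the message level, each per kilobase, had medians from 2.33 for Hsp90b1 and 2.38 for Pdia4 up to 7.33 for Pdia6 and 9.69 for Xbp1. Across 2256 genes with enough counts the median of this ratio was 3.02, and Xbp1 lay above 87.5% and Pdia6 above 82.0% of them, while Pdia4 lay above 36.2%. The ratio of Xbp1 rests on 2 to 50 footprints per library and ranged from 2.00 to 15.5. It also depends on the lengths used, 2129 transcript and 801 coding bases, since the region counted is not given in the sources used here. Not divided by length, the ratio had group means of 1.94 to 4.99 for Xbp1 and 3.64 to 4.87 for Pdia6.

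**Figure D1:**
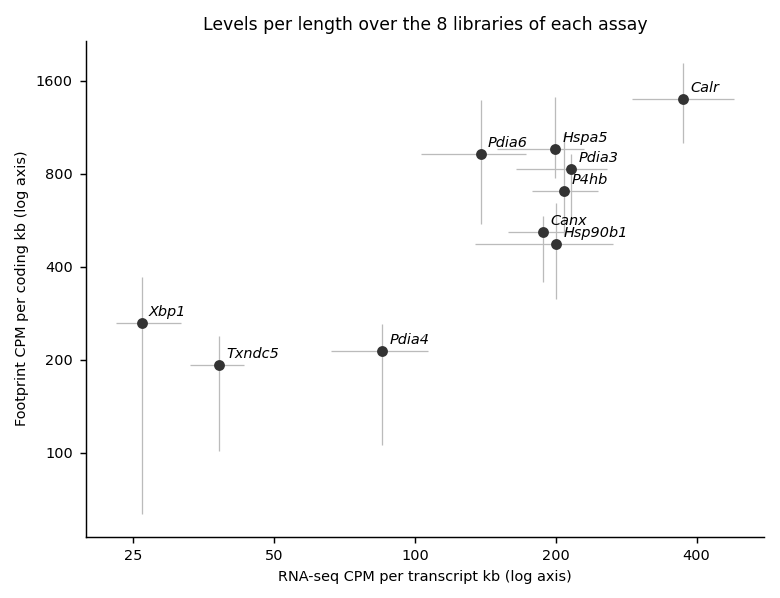
Levels of the 10 genes per kilobase, on logarithmic axes: message CPM per transcript kb and footprint CPM per coding kb, with points at the median and lines over the range of the 8 libraries. Calr is highest in both assays, with medians of 374 and 1396, and Xbp1 and Txndc5 are the lowest in messages and footprints, at 26.0 and 192.

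The first comparison asks how the ER folding messages of HFSCs relate to those of progenitors. In untreated cells all 10 were lower in HFSCs, by 0.21 (Canx) to 0.42 (Hsp90b1) on the log2 scale, and for each of them both HFSC libraries lay below both progenitor libraries. That pattern chose the genes, and across the transcriptome 21.6% of 14224 genes were lower without overlap in the same contrast, so nothing is read from the count. In bulk RNA, fewer cells of a kind and less RNA per cell cannot be told apart.

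The ER chaperones Hspa5 and Hsp90b1 had the largest differences in untreated cells and in the average over both treatments. Hspa5 messages were at 801 and 817 CPM in untreated progenitors, 669 and 550 in untreated HFSCs, 768 and 843 in N1-AcSpd progenitors and 696 and 607 in N1-AcSpd HFSCs. Every HFSC library was thus below every progenitor library. As numbered, mouse 2 gave the lowest value with and without N1-AcSpd. The mouse numbers of the N1-AcSpd HFSC libraries may be exchanged, as described below. Hsp90b1 was at 654 and 576 CPM in untreated progenitors, 538 and 379 in untreated HFSCs, 748 and 595 in N1-AcSpd progenitors and 517 and 558 in N1-AcSpd HFSCs. Its 4 HFSC libraries were also below its 4 progenitor libraries, but the untreated HFSC library of mouse 2, at 379 CPM, stood well under the rest. The lectin chaperones Calr and Canx ranged from 637 to 1048 and from 596 to 820 CPM, with overlap between the cell types over both treatments.

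Among the isomerases, P4hb was at 643 and 615 CPM in untreated progenitors, 573 and 508 in untreated HFSCs, 706 and 654 in N1-AcSpd progenitors and 550 and 577 in N1-AcSpd HFSCs. Txndc5 was at 109 and 120, 94.9 and 101, 123 and 110, and 94.1 and 107 CPM in the same order of groups. Neither gene overlapped between the cell types, although the closest Txndc5 values, 107 and 109 CPM, were nearly equal. Pdia3 and Pdia6 ranged from 456 to 712 and from 224 to 375 CPM, and Pdia4, at 159 to 256 CPM, overlapped between the cell types because the N1-AcSpd HFSC library of mouse 1, at 206 CPM, was above the lower untreated progenitor library, at 203. Xbp1 was at 67.2 and 64.9 CPM in untreated progenitors, 55.7 and 52.6 in untreated HFSCs, 55.2 and 66.6 in N1-AcSpd progenitors and 52.1 and 49.0 in N1-AcSpd HFSCs. Its cell types overlapped through the N1-AcSpd progenitor library of mouse 1.

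**Figure D2:**
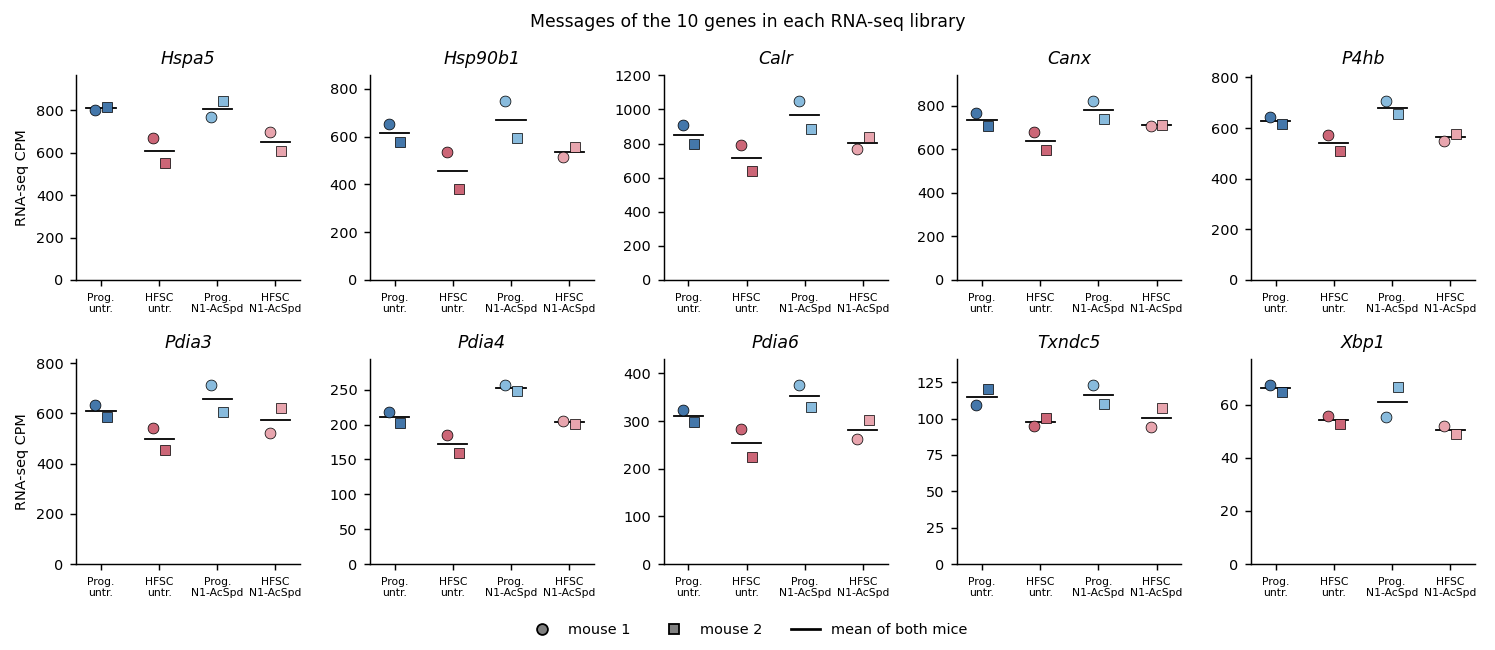
RNA-seq level of the 10 genes in CPM, 1 panel per gene, with a point for each of the 8 libraries and bars at the group means of 2 mice. In untreated cells both HFSC points lie below both progenitor points for all 10 genes, and with N1-AcSpd for 9 of 10, Pdia3 being the exception.

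The contrast between N1-AcSpd-treated cells compares none of the untreated libraries on whose values the genes were selected. It is not an independent check. The cells came from the same mice, and the genes were chosen with earlier results of these data known. The untreated libraries also entered the filter, scaling and variance estimates of the shared fit. There the 10 messages were again lower in HFSCs, by 0.14 (Canx) to 0.32 (Hsp90b1 and Pdia6) on the log2 scale, with a median of −0.27 against 0.0016 over all genes tested. In 9 of the 10 both HFSC libraries were below both progenitor libraries, a pattern that 19.5% of all genes showed, and Pdia3 overlapped, at 712 and 607 CPM against 523 and 622. With edgeR's quasi-likelihood test, adjusted over all 14224 genes by the Benjamini-Hochberg method, 0 of the 10 passed (0.745% of genes did), and DESeq2 called 0 of 10 (2.92% of genes). Unadjusted edgeR p-values were under 0.05 for 5 of 10 (5.36% of all genes were lower at this level) and DESeq2 gave 4 (4.54% of genes). These were Pdia4 at −0.31 (SE 0.106, adjusted p = 0.305 by edgeR), P4hb at −0.27 (SE 0.105, adjusted p = 0.374), Hspa5 at −0.31 (SE 0.126, adjusted p = 0.405), Xbp1 at −0.27 (SE 0.116, adjusted p = 0.433) and Pdia6 at −0.32 (SE 0.141, adjusted p = 0.444). In a fit of the 4 treated libraries alone 1 of 10 was lower at an unadjusted p under 0.05 (4.41% of genes). Without mouse 1 the difference of Pdia3 turned to 0.025, and the median of the 10 shrank to −0.12. Both values rest on the mouse numbers of the 2 N1-AcSpd HFSC libraries, which may be exchanged, as described below. With these numbers exchanged Pdia3 would be lower in both mice, at 622 against 712 and 523 against 607 CPM. With the mouse number as a block, unadjusted p-values were under 0.05 for 3 of 10 as numbered (5.2% of genes were lower at this level) and for 8 of 10 with the numbers exchanged (8.42%), and 0 of 10 passed the adjustment in either fit (0.309% and 6.35% of genes).

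Averaged over both treatments the log2 differences between HFSCs and progenitors ran from −0.17 (SE 0.0776) for Canx to −0.37 (SE 0.125) for Hsp90b1 and −0.36 (SE 0.0894) for Hspa5, and the median of the 10 was −0.27 against −0.0057 over all genes. The isomerases P4hb, Pdia3, Pdia4, Pdia6 and Txndc5 lay between, at −0.24, −0.25, −0.30, −0.31 and −0.22, as did Calr at −0.26 and Xbp1 at −0.28. This average shares the untreated libraries with the contrast that chose the genes and is given as a description. With edgeR's adjustment 0 of 10 passed (3.91% of genes did), 9 of 10 were lower at an unadjusted p under 0.05 (8.88% of genes), and the groups of 4 did not overlap for Hspa5, Hsp90b1, P4hb and Txndc5, which is 4 of 10 (4.42% of genes). The DESeq2 test called 2 of 10, Hspa5 and Pdia4 (7.1% of the genes it tested). The count depended most on how the mice were paired. With the mouse number as a block it was 0 as the libraries are numbered (3.12% of genes were called in either direction). It was 8 of 10 when the numbers of the N1-AcSpd HFSC RNA-seq libraries were exchanged (6.14% of genes were called lower). That exchange was tried after seeing the data, because the difference between mice in these 2 libraries ran against that in the other 3 groups, with correlations over genes of −0.631 to −0.377 against 0.355 to 0.675.

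The second comparison asks how the same messages stood with and without N1-AcSpd. Its untreated libraries are those on which the genes were selected. Averaged over both cell types 9 of 10 were higher with N1-AcSpd and Xbp1 was lower, with a median of 0.14 on the log2 scale against −0.015 over all genes. The median was 0.21 without mouse 1 and 0.072 without mouse 2. Pdia4 had the largest value. It was at 218 and 203 CPM in untreated progenitors and at 256 and 248 with N1-AcSpd, and at 185 and 159 CPM in untreated HFSCs and 206 and 201 with N1-AcSpd. In each cell type both treated libraries were above both untreated ones. The log2 difference was 0.25 (SE 0.0751, adjusted p = 0.155 by edgeR, 0.0338 to 0.178 under the alternatives), with 0.26 in progenitors and 0.24 in HFSCs. Adjusted edgeR p-values were under 0.05 for 0 of 10 genes (1.64% of all genes), unadjusted ones for Pdia4 only (1 of 10, against 7.63% of genes higher), and DESeq2 gave 0 and 1 (4.42% called and 6.39% higher among all genes).

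The values of the other 9 genes were each within 2 standard errors of 0. Calr was at 0.18 (SE 0.101), Hsp90b1 at 0.18 (SE 0.125), Pdia6 at 0.17 (SE 0.0993), Pdia3 at 0.16 (SE 0.0968), Canx at 0.12 (SE 0.0776) and P4hb at 0.09 (SE 0.074), while Hspa5 and Txndc5 were at 0.05 (SE 0.0893) and 0.03 (SE 0.0792). Xbp1, the one gene of the set that encodes no folding factor, was at −0.11 (SE 0.0818), with −0.12 in progenitors and −0.10 in HFSCs. Without mouse 1 the Xbp1 value in progenitors turned to 0.046. The difference between the cell types in the change with N1-AcSpd is the treated cell type difference minus the untreated one, on which the genes were selected, and is given as a description. This interaction had a median of 0.019 and ranged from −0.05 to 0.10. It was called by edgeR and by DESeq2 for 0 of 10 genes (0% of all genes). At an unadjusted p under 0.05 both tests gave 0 of 10. Among all genes edgeR had 0.513% lower and 0.316% higher at this level, and DESeq2 0.309% and 0.112%.

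**Figure D3:**
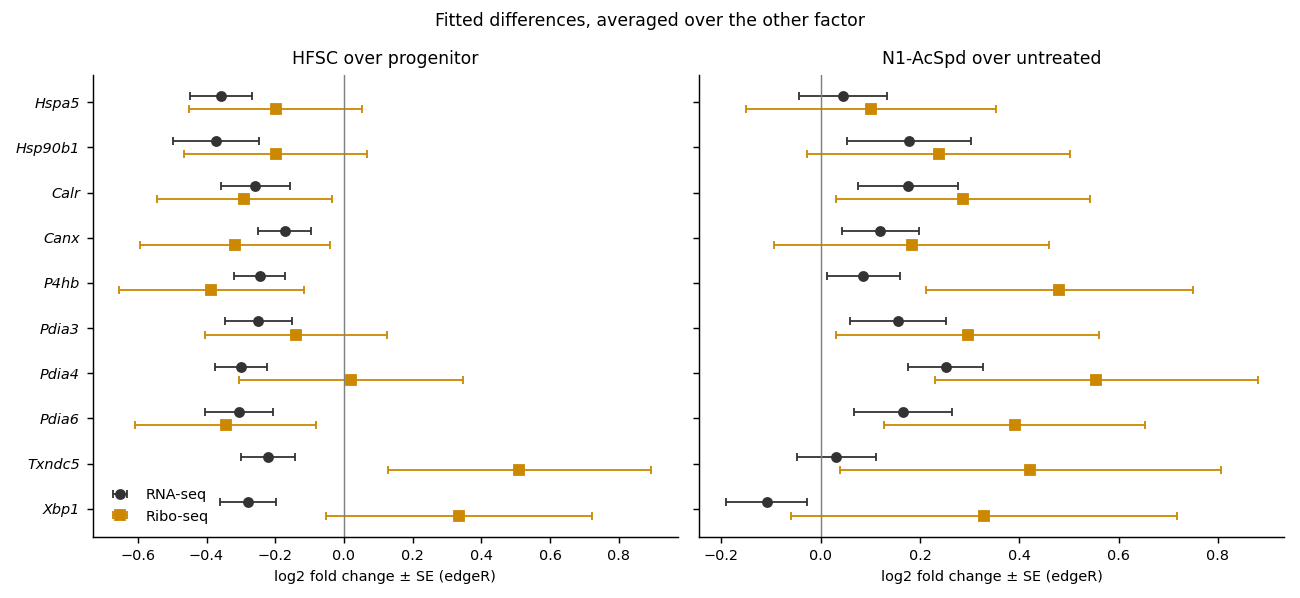
Log2 fold changes with their standard errors for HFSCs over progenitors and for N1-AcSpd over untreated cells, each averaged over the other factor, for messages (RNA-seq) and footprints (Ribo-seq). Messages of all 10 genes are left of 0 in the cell type contrast (−0.37 to −0.17), footprints of all 10 are right of 0 in the N1-AcSpd contrast (0.10 to 0.56), and the footprint bars are several times wider.

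Footprints showed the cell type difference less uniformly. Averaged over both treatments 7 of 10 genes were lower in HFSCs and 3, Txndc5, Xbp1 and Pdia4, were higher, with a median of −0.20 against 0.0037 over all genes. P4hb was at −0.39 (SE 0.269), Pdia6 at −0.34 (SE 0.263), Canx at −0.32 (SE 0.277) and Calr at −0.29 (SE 0.255), and Txndc5 and Xbp1 were at 0.51 (SE 0.383) and 0.33 (SE 0.388). With edgeR 0 of 10 passed after adjustment (0.154% of 8440 genes) and 0 had an unadjusted p under 0.05 (2.03% of genes were lower at this level), and DESeq2 gave 0 for both (0.0118% and 0.64%). The standard errors were 0.252 to 0.388, against 0.0741 to 0.125 for the messages, and they hold both counting error and the spread between mice. Without mouse 2, which holds the deepest library, the values of Canx, Pdia3 and Pdia6 turned to 0.037, 0.060 and 0.097, and the median of the 10 to 0.038.

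With N1-AcSpd the footprints of all 10 genes were higher when averaged over the cell types, with a median of 0.31 against −0.038 over all genes. Pdia4 and P4hb had the largest values. In CPM, which rest on TMM-adjusted and not raw library totals, they were the 2 of 10 whose 4 treated libraries lay above all 4 untreated ones (1.49% of genes were higher without overlap). P4hb was at 938 and 1068 footprint CPM in untreated progenitors, 1335 and 1658 in N1-AcSpd progenitors, 775 and 858 in untreated HFSCs and 1086 and 1073 in N1-AcSpd HFSCs. It rested on 37 to 263 footprints per library, and the log2 difference was 0.48 (SE 0.269). Pdia4 was at 203 and 365 footprint CPM in untreated progenitors, 449 and 498 in N1-AcSpd progenitors, 229 and 401 in untreated HFSCs and 421 and 503 in N1-AcSpd HFSCs. The 2 untreated libraries of mouse 1 were low, with 8 and 13 Pdia4 footprints, and the log2 difference was 0.56 (SE 0.325).

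Neither gene passed the adjustment (adjusted p = 1 by edgeR), and of the whole set 0 of 10 did (0.0829% of genes). At an unadjusted p under 0.05 edgeR gave 0 of 10 (2.13% of genes were higher at this level) and DESeq2 0 (0.699%), while the edgeR fit with the mouse as a block gave 2, P4hb and Pdia4, with unadjusted p-values of 0.0499 and 0.0439 (2.16% of genes were higher at this level). The remaining genes ranged from 0.10 (SE 0.252) for Hspa5 to 0.42 (SE 0.383) for Txndc5. Without mouse 1 the values of Calr, Canx and Xbp1 turned to −0.024, −0.027 and −0.35, and the median of the 10 was 0.041. The change with N1-AcSpd was not called as different between the cell types for any of the 10 by edgeR or DESeq2 (0% of genes in both). Unadjusted p-values under 0.05 were 0 of 10 from either test. Among all genes edgeR had 0.948% lower and 1.78% higher at this level, and DESeq2 0.284% and 0.273%. Txndc5, selected on its untreated footprint ratio, was at −1.10 (SE 0.768) in this difference between the cell types.

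**Figure D4:**
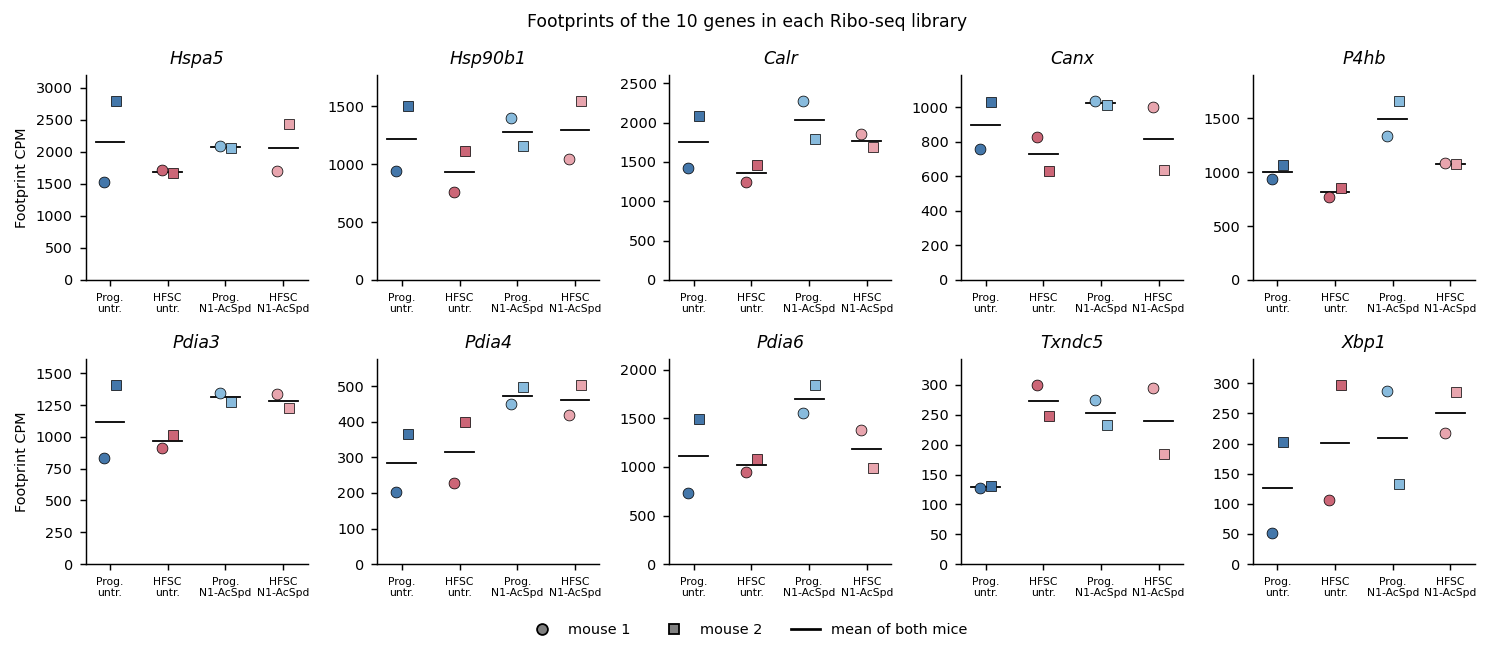
Ribo-seq level of the 10 genes in footprint CPM, 1 panel per gene, with a point for each of the 8 libraries and bars at the group means of 2 mice. P4hb and Pdia4 are the genes whose 4 N1-AcSpd points lie above all 4 untreated points, and the 2 untreated progenitor points of Txndc5, at 127 and 130, are the lowest of that gene.

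The third comparison sets footprints against messages from the same lysate. This ratio, the translational efficiency, was tested as the interaction of assay and group in edgeR. Apart from the untreated contrast, which is described only, 5 contrasts were tested, and in each 0 of 10 genes passed edgeR's adjustment (0% of all genes). The DESeq2 test called 0 of 10 as well, and 0% of all genes in 4 of the contrasts. In the fifth, N1-AcSpd averaged over the cell types, it gave 586 genes an adjusted p, not among them Txndc5 and Xbp1, and called 1.19% of these. In the 4 contrasts that use untreated libraries the values of Txndc5 are descriptions. Unadjusted p-values under 0.05 were given by edgeR and DESeq2 to 0 of 10 between treated HFSCs and progenitors, and to 0 of the 9 genes other than Txndc5 between treated and untreated HFSCs. Among all genes edgeR had 2.59% lower and 3.65% higher in the former and 3.93% and 2.97% in the latter, and DESeq2 3.45% and 3.99%, and 4.73% and 3.8%. For N1-AcSpd averaged over the cell types edgeR gave 0 (4.46% of genes were lower and 2.89% higher at this level). DESeq2 gave 1, P4hb (3.96% of genes were higher at this level).

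Txndc5, an isomerase with 3 redox domains, had 5 and 32 footprints in untreated progenitors, 17 and 31 in untreated HFSCs, 22 and 14 in N1-AcSpd progenitors and 42 and 11 in N1-AcSpd HFSCs. Scaled to the library these were 127 and 130 CPM, 299 and 248 CPM, 274 and 232 CPM, and 294 and 184 CPM. Divided by the message CPM, the ratio was 1.16 and 1.08 in untreated progenitors, 3.15 and 2.47 in untreated HFSCs, 2.24 and 2.11 in N1-AcSpd progenitors and 3.13 and 1.72 in N1-AcSpd HFSCs. The untreated progenitors stood at the low end in both mice. Untreated HFSCs were above N1-AcSpd progenitors, and N1-AcSpd HFSCs, at 1.72 and 3.13, overlapped with both. The ratios of N1-AcSpd HFSCs depend on which of their RNA-seq libraries belongs to which mouse, and would be 2.75 and 1.96 with those numbers exchanged. A count of 5 footprints has an exact 95% Poisson interval of 1.62 to 11.7, which covers counting error only, since the reads carry no molecular identifiers.

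As a description, the log2 translational efficiency of Txndc5 was 1.23 (SE 0.395) higher in untreated HFSCs than in untreated progenitors, and 1.12 and 1.40 when mouse 1 and mouse 2 were left out in turn. With N1-AcSpd the difference between HFSCs and progenitors, which uses none of those libraries, was 0.22 (SE 0.394, adjusted p = 0.928 by edgeR). It was −0.29 without mouse 1 and 0.43 without mouse 2. The difference between N1-AcSpd and untreated cells was 0.91 (SE 0.398) in progenitors and −0.11 (SE 0.406) in HFSCs. Both use untreated libraries on whose Txndc5 ratio the gene was chosen and are descriptions. The message of Txndc5 was at −0.23 in untreated HFSCs over progenitors, and at 0.02 and 0.04 with N1-AcSpd in progenitors and HFSCs.

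**Figure D5:**
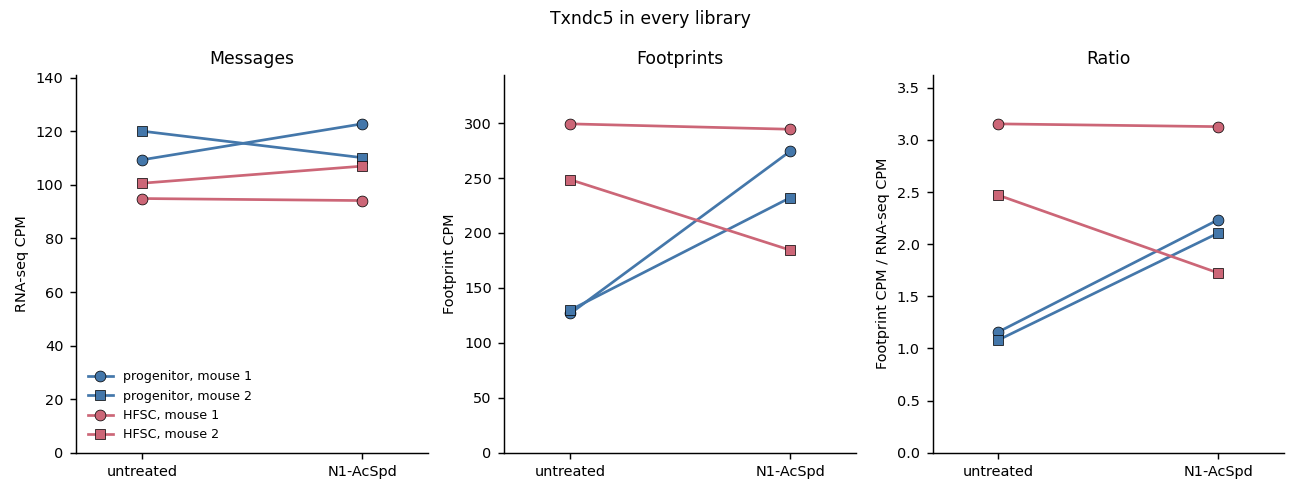
Txndc5 in every library: message CPM, footprint CPM and the ratio of the latter to the former. Lines join the untreated and the N1-AcSpd library of each cell type and mouse number. The mouse numbers of the N1-AcSpd HFSC RNA-seq libraries may be exchanged. The ratio is 1.08 and 1.16 in untreated progenitors and 1.72 to 3.15 in the other 6 libraries, with N1-AcSpd HFSCs spanning 1.72 to 3.13.

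Xbp1 had 2 and 50 footprints in untreated progenitors, 6 and 37 in untreated HFSCs, 23 and 8 in N1-AcSpd progenitors and 31 and 17 in N1-AcSpd HFSCs. Its ratio to message ran from 0.754 and 3.13 in untreated progenitors to 1.90 and 5.63 in untreated HFSCs, and was 5.19 and 1.99 in N1-AcSpd progenitors and 4.17 and 5.82 in N1-AcSpd HFSCs. The mice of most groups lay far apart, and each pair of groups compared overlapped. The log2 efficiency in HFSCs over progenitors, averaged over both treatments, was 0.52 (SE 0.347, adjusted p = 0.875 by edgeR).

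For N1-AcSpd over untreated cells, P4hb was the 1 gene of the 10 whose efficiency did not overlap between the groups of 4 (1.26% of genes were higher without overlap). Its ratio was 1.46 and 1.74 in untreated progenitors, 1.35 and 1.69 in untreated HFSCs, 1.89 and 2.54 in N1-AcSpd progenitors and 1.97 and 1.86 in N1-AcSpd HFSCs (1.88 and 1.95 with the RNA-seq numbers exchanged). The log2 difference was 0.38 (SE 0.202, adjusted p = 0.704 by edgeR, 0.233 to 0.836 under the alternatives). In the remaining genes the value averaged over the cell types lay between 0.0058 for Hsp90b1 and 0.43 for Txndc5, and the median of the 10 was 0.15 against −0.052 over all genes. That median turned with the mouse, at −0.18 without mouse 1 and 0.49 without mouse 2.

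The wider ER folding pathway was followed with 118 further genes in 7 lists, of which 116 passed the filter in RNA-seq. In HFSCs, averaged over both treatments, 84 of 116 (72.4%) were lower than in progenitors, against 51.1% of all genes, with a median of −0.093. Between treated cells 83 of 116 (71.6%) were lower, against 49.6% of all genes, with a median of −0.077. There edgeR called 0 of 116 (0.745% of all genes). No untreated library is compared in this contrast, but the untreated libraries entered the filter, scaling and variance estimates of the shared fit. In the average over treatments, which includes the untreated libraries, edgeR called 3 of 116 lower, a share near that of all genes (1.8%), and nothing is read from the count. Sdf2l1, a component of the Hspa5 chaperone complex, fell by 0.49 (SE 0.0815, adjusted p = 0.0163 by edgeR), Hyou1, a nucleotide exchange factor of Hspa5, fell by 0.42 (SE 0.0796, adjusted p = 0.0266) and Manf, a stress-induced factor that binds Hspa5, fell by 0.42 (SE 0.0812, adjusted p = 0.0277). In treated cells alone they were at −0.51, −0.36 and −0.41, with adjusted p-values of 0.112, 0.255 and 0.195 by edgeR. Hyou1 was at 254 and 223 CPM in untreated progenitors, 180 and 164 in untreated HFSCs, 297 and 265 in N1-AcSpd progenitors and 225 and 214 in N1-AcSpd HFSCs, so 1 N1-AcSpd HFSC library was above the lower untreated progenitor library. In untreated cells alone 90 of 116 (77.6%) were lower, against 52.2% of all genes. The lower ones with the smallest p there were Hyou1 at −0.47, Magt1, an oligosaccharyltransferase subunit, at −0.42 and Sdf2l1 at −0.47 (adjusted p = 0.176 to 0.189 by edgeR). The higher ones were the prolyl isomerases Fkbp7 at 0.90 (SE 0.459) and Fkbp10 at 0.60 (SE 0.566) and the lysyl hydroxylase Plod1 at 0.37 (SE 0.272), with adjusted p = 0.594 to 0.824 by edgeR. Fkbp7 and Fkbp10 were scarce, at 0.54 to 1.55 and 0.66 to 2.01 CPM in untreated libraries.

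By list, the ER folding factors were lower in HFSCs in 30 of 40 genes (median −0.13), the genes of translocation into the ER in 15 of 18 (median −0.13), the oligosaccharyltransferase in 8 of 10 (median −0.15), ER-associated degradation in 18 of 26 (median −0.09) and the sensors and regulators of the unfolded protein response in 8 of 12 (median −0.05). All 3 KDEL receptors, which return the chaperones to the ER, were lower, with a median of −0.08. Of all genes 51.1% were lower in this average over both treatments. In the list of P4hb partners and related collagen hydroxylases (P4ha1, P4ha2, P4ha3, Plod1, Plod2, Plod3 and Mttp, which with P4hb forms the lipid transfer complex) 5 of 7 were higher, with a median of 0.097. Compared with the medians of these lists, that of the 10 genes, at −0.27, was the lowest, in a set chosen for that direction.

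With N1-AcSpd all 7 genes of the list of P4hb partners were lower, with a median of −0.41, and edgeR called 3 of 7 (0.443% of all genes were called lower). This contrast, too, uses the untreated libraries. Plod2, a lysyl hydroxylase of collagen, fell by 0.83 (SE 0.133, adjusted p = 0.0230 by edgeR), and P4ha1 and P4ha2, the alpha subunits that pair with P4hb in prolyl 4-hydroxylase, fell by 0.41 (SE 0.0697, adjusted p = 0.0288) and 0.39 (SE 0.0767, adjusted p = 0.0465). P4ha1 was at 114 and 112 CPM in untreated progenitors and 119 and 110 in untreated HFSCs, and at 80.0 to 88.1 CPM in the 4 N1-AcSpd libraries, so treated and untreated libraries did not overlap. P4hb itself was at 0.09 in the same contrast. Over the 116 genes edgeR called these 3 lower and 1 higher. The latter is a smaller share than the 1.2% of all genes called higher, so the call is not read as a result. It was Fkbp11, a prolyl isomerase of the secretory pathway, at 0.53 (SE 0.104, adjusted p = 0.0484 by edgeR), with 7.99 to 12.4 CPM in untreated and 12.3 to 17.1 CPM in N1-AcSpd libraries. By list, 20 of 40 ER folding factors were higher (median 0.011), as were 14 of 18 translocation genes (0.078), 8 of 10 of the oligosaccharyltransferase (0.067), 15 of 26 of ER-associated degradation (0.027), 6 of 12 regulators of the unfolded protein response (0.0016) and 1 of 3 KDEL receptors (−0.059). Over the 116 genes 64 were higher and 52 (44.8%) lower, against 52.9% of all genes lower, with a median of 0.029. The lists were not tested against each other.

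The 10 genes were selected for being lower in untreated HFSCs, and those libraries are among the 8 over which their messages were correlated, so likeness between them is partly built in. The 45 pairwise Pearson correlations of log2 CPM had a median of 0.820 and ranged from 0.310 to 0.980, over libraries that share their groups and mice. Over all pairs of the 2251 other genes with enough counts the median was 0.064, and 3.64% of pairs lay above the members' median. Their mean profile, each gene scaled to unit spread, was highest in the N1-AcSpd progenitor library of mouse 1 and lowest in the untreated HFSC library of mouse 2. Among those 2251 genes the profiles most like it over the 8 libraries were those of Lasp1 (r = 0.994), Klc1 (0.986), Nars (0.984), Ssr1 (0.977), Enah and Itga6 (both 0.975), Ube2m (0.974), Manf (0.973), Rcn1 (0.971) and Ubqln1 (0.967). Ssr1 and Manf belong to the ER lists. Itga6 encodes the integrin alpha6 used for sorting, and was at 980 and 945 CPM in untreated progenitors, 802 and 689 in untreated HFSCs, 983 and 932 in N1-AcSpd progenitors and 803 and 847 in N1-AcSpd HFSCs.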

How the data were processed

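Each lysate of sorted cells gave 1 RNA-seq and 1 Ribo-seq library, and each replicate number is 1 donor mouse. What the authors deposited are raw counts per transcript on GRCm38.p5 (mm10), from STAR 2.7.3a alignments. Ribosomal and transfer RNA had been filtered out beforehand (bowtie 1.2.3, after flexbar), and featureCounts is named in the submitters' processing notes. The region counted for each transcript is not given in the sources used here. Deposited columns of the authors' own translational efficiency comparisons were not used.

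The 10 genes, the 7 lists of further ER genes and the comparisons were chosen with earlier results of these data known. The named genes are the 10 members in every comparison, further ER genes past the threshold in the averaged contrasts, and the 3 with the smallest p in each direction in untreated RNA-seq. 1 transcript per gene was kept, that with the most footprints. Fits took genes whose mean count was 1 or more (14224 in RNA-seq, 8440 in Ribo-seq) and used edgeR 4.0.16 in R 4.3.3, with TMM scaling, 4 groups in 1 quasi-likelihood fit per assay and Benjamini-Hochberg adjustment at 0.05 over all genes. Translational efficiency was the interaction of assay and group, in 8 libraries per pairwise contrast and in all 16 for averages. The deposited counts were also tested with DESeq2 1.42.0. CPM are counts scaled to 1e6 of the TMM-adjusted library size, not of the raw library total. Lengths and coding sequences are from GENCODE vM21, promoters from RefSeq. The test scripts were checked on simulated counts.

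Replicate numbers pair the samples, since each marks a mouse in the labels. Over genes, the difference between mice correlated at 0.355 to 0.675 among 3 RNA-seq groups, at −0.631 to −0.377 with N1-AcSpd HFSCs, and at 0.0111 to 0.1 among the Ribo-seq groups. Fits had no block unless stated. Library totals were 21612795 to 31524062 counts in RNA-seq and 34475 to 268052 footprints in Ribo-seq. With 2 mice per group the p-values cover these mice only. In edgeR they rest on a spread pooled over the groups of a fit and moderated over genes. The same 2 mice supply every group, and fits without a block treat their libraries as independent. An exact permutation test of 2 against 2 could not go below p = 0.333.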

Additional observations from a re-analysis of the deposited data

Results flagged for a closer look

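For Txndc5 the change with N1-AcSpd was above 0 in both mice in progenitors and below 0 in both in HFSCs, where mouse 1 was close to 0. The values use the untreated libraries on whose Txndc5 ratio the gene was selected. The mean log2 change of its footprint CPM in HFSCs minus that in progenitors was −1.203, and the same difference for its footprint-to-message ratio was −1.22. By mouse, the footprint change was 1.11 and 0.84 in progenitors and −0.024 and −0.43 in HFSCs, and the change of the ratio was 0.95 and 0.96 in progenitors and −0.012 and −0.52 in HFSCs, where it depends on the mouse numbers of the N1-AcSpd RNA-seq libraries, which may be exchanged. The difference was not tested on this measure, and 60 such patterns were examined over the 10 genes. The interaction of cell type and N1-AcSpd in the edgeR fit of footprints was −1.10 (SE 0.768, adjusted p = 1). The 5 to 42 Txndc5 footprints per library limit both values, and the untreated progenitor library of mouse 1 holds the 5.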

How the results depend on the processing

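The alternatives were followed for 75 results of single genes, not for every result of the 10 genes. The averaged efficiency with N1-AcSpd is not among the reversals below, although its median over the 10 genes turned without mouse 1. Of the 781 values followed, 771 kept their direction and 10 reversed, all of them with a mouse left out. Without mouse 1 or 2 in turn, the ranges were −0.42 to 0.025 for Pdia3 in RNA-seq of N1-AcSpd cells, −0.015 to 0.085 for Txndc5 and −0.27 to 0.046 for Xbp1 (progenitors) in RNA-seq with N1-AcSpd, −0.71 to 0.037 for Canx, −0.28 to 0.060 for Pdia3 and −0.70 to 0.097 for Pdia6 in footprints of HFSCs over progenitors, −0.024 to 0.62 for Calr, −0.027 to 0.36 for Canx and −0.35 to 1.75 for Xbp1 in footprints with N1-AcSpd, and −0.29 to 0.43 for the treated efficiency of Txndc5. These fits have no residual degrees of freedom and give values only.

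Of 212 medians over the 10 genes, 9 moved by more than the spread between mice. The median message difference of HFSCs averaged over treatments was −0.26 with no minimum count, −0.26 with counts summed over transcripts and −0.26 to −0.25 with a mouse left out. With a mouse left out, the medians were −0.24 to −0.074 for footprints of treated HFSCs over progenitors, −0.28 to 0.038 averaged over treatments, and −0.11 to 0.34, −0.055 to 0.11 and 0.065 to 0.25 for efficiency in untreated, treated and all cells. The causes were not tested.

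With the replicate block as labelled, 0 of the 10 genes was called in each comparison, where 0% to 3.12% of all genes were called. The median message difference was −0.27 averaged over treatments. With the exchanged numbers, chosen after seeing the data, 8 were called there (13.7% of all genes in either direction), 1 in untreated cells (Hsp90b1, 5.29% of genes) and 1 with N1-AcSpd (Pdia4, 8.86%). In the averaged cell type contrast DESeq2 called 2 (7.1%) and the fit with no minimum count 1 (Hspa5, 5.42%). The untreated contrast selected the genes and the averages share its libraries, so these counts are descriptions. Txndc5, Xbp1 and Pdia4 rest on the fewest footprints.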
